A study of Mus musculus with 38 samples.

Results

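The 9 genes described here code for RNA-binding proteins that are found in the transport granules of neurons: *Fmr1*, *Fxr1* and *Fxr2*, *Stau1* and *Stau2*, *Pum2*, *Cpeb3* and *Cpeb4*, and *Caprin1*. They were chosen by name, with earlier results of these data known, and are 9 of the 22443 coding genes in the tables. All 9 had enough counts to be tested in every comparison of the coding sequence (CDS). What was measured is ribosome footprints on the mRNAs of these genes themselves, and not the mRNAs that their proteins bind. No mRNA level was set beside the footprints. A change in translation per mRNA and a change in mRNA level therefore cannot be told apart.

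Transport granules are assemblies of mRNA and protein that move along microtubules into dendrites, where their mRNAs can be held silent until a synapse is active. FMRP, the product of *Fmr1*, binds neuronal mRNAs and holds back their translation, and its loss causes fragile X syndrome. Fxr1 and Fxr2 are its autosomal paralogs. Stau1 and Stau2 bind paired stretches of RNA and were named after the *Drosophila* protein Staufen, and Stau2 is the more neuronal of the pair. Pum2 is a Pumilio protein, and Cpeb3 and Cpeb4 are cytoplasmic polyadenylation element binding proteins. Pumilio and CPEB proteins repress or release mRNAs through sites in 3′ UTRs. Caprin1 binds G3BP1 and is found in both neuronal RNA granules and stress granules.

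Footprints came from primary mouse cortical neurons that carried the biotin ligase TurboID on a doxycycline-inducible lentivirus. The bait named PSD95-TurboID holds the UTRs and the palmitoylation element of the transcript for the postsynaptic protein PSD95, and Pan-TurboID holds no localization signal and labels the whole neuron. For each culture, monosome footprints were sequenced from the whole lysate (input) and from the ribosomes retained on streptavidin (pulldown), after cycloheximide for 2 min and biotin, given as 30 min in the labels of all libraries and as a shorter time after DHPG in the study's methods. The KCl experiment had 8 groups of 3 libraries, which were both baits at rest and after depolarization with 55 mM KCl for 1 h, each as input and pulldown. Neurons given KCl had first been silenced for 2 h with TTX, which blocks sodium channels, and DL-AP5, which blocks NMDA receptors. Per the study's methods, biotin was given after the KCl medium had been replaced by fresh medium with TTX and DL-AP5. The sources used here name no silencing for the resting groups, so KCl against rest also spans these steps. A further 3 inputs and 3 pulldowns of PSD95-TurboID neurons were taken after 100 µM DHPG for 10 min, which activates metabotropic glutamate receptors of group I, following 2 h of silencing. Another 4 groups of 2 libraries came from PSD95-TurboID neurons treated with 20 nM siRNA against the initiation factor eIF4G2 for 72 h, as input and pulldown at rest and after KCl, with 2 h of silencing before KCl. Libraries of a control siRNA were not analysed here, so the knockdown could only be set against neurons without siRNA. The neurons were cultured from embryonic cortex, and the bait comes from a lentiviral transgene that holds part of the PSD95 transcript.

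The labels give the DHPG and knockdown libraries a treatment protocol apart from that of the KCl experiment and name no sequencing run. In each comparison of DHPG or knockdown libraries with resting or KCl libraries, experiment and treatment cannot be told apart, and the length of labelling after DHPG may differ as well. The DHPG and knockdown comparisons also share the same resting libraries as their control. DHPG and knockdown pulldowns against their own inputs, and KCl against rest within the knockdown, lie within a single experiment.

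The following lines show, for each gene on its longest listed transcript, the bases around the start codon, with the start codon in capitals. The 5′ UTR just before it is where another set of footprints was counted. They are the sequences of the mouse genome build mm10, read 5′ to 3′ along the mRNA.
Fmr1: aggacggacgagaagATGgaggagctg
Fxr1: ccaacATGgcggagctg
Fxr2: ggtggtggcggcgccATGggcggcctg
Stau1: ctggaaagaaaaccaATGtataagccc
Stau2: tctctccacgataaaATGgcaaacccc
Pum2: tgatctgtggatgaaATGaatcatgat
Cpeb3: caagctgcgcaaaccATGcaggatgat
Cpeb4: tcctaaaaataataaATGggggattac
Caprin1: ctccgcgcgcgcacgATGccctcggcc
The annotated 5′ UTR was 276 bases long in *Fmr1*, 328 in *Fxr2*, 304 in *Stau1*, 159 in *Stau2*, 275 in *Pum2*, 179 in *Cpeb3* and 187 in *Caprin1*. It was 62 bases long in *Cpeb4* and 5 in *Fxr1*. An ATG upstream of the start codon, the first letter triplet of a possible upstream open reading frame, was present at 1 position in the 5′ UTR of *Stau1* and at 2 positions each in *Stau2*, *Pum2* and *Cpeb3*. *Fmr1*, *Fxr1*, *Fxr2*, *Cpeb4* and *Caprin1* had 0 (forward strand only, letters ATG in any frame). Of 20874 annotated 5′ UTRs, 55.2% held at least 1. This share depends on length. Among 5′ UTRs of like length it was 74.4% for *Fmr1*, 0% for *Fxr1*, 81.4% for *Fxr2*, 24.5% for *Cpeb4* and 60.0% for *Caprin1*. It was 78.5% for *Stau1*, 53.1% for *Stau2*, 74.1% for *Pum2* and 58.3% for *Cpeb3*.

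The coding sequences lie at chrX:68678817-68715675 (+ strand, 1845 coding bases in 17 exon segments) for *Fmr1*, chr3:34020113-34068933 (+ strand, 1620 coding bases in 16 exon segments) for *Fxr1* and chr11:69633318-69652699 (+ strand, 2025 coding bases in 17 exon segments) for *Fxr2*. They lie at chr2:166949344-166964658 (- strand, 1470 coding bases in 11 exon segments) for *Stau1* and chr1:16345698-16486133 (- strand, 1536 coding bases in 10 exon segments) for *Stau2*. *Pum2* lies at chr12:8698109-8749720 (+ strand, 3195 coding bases in 20 exon segments), *Cpeb3* at chr19:37024860-37174974 (- strand, 2151 coding bases in 10 exon segments), *Cpeb4* at chr11:31872288-31931532 (+ strand, 2139 coding bases in 9 exon segments) and *Caprin1* at chr2:103766799-103796940 (- strand, 2124 coding bases in 18 exon segments). Of all 28-base stretches of the genome that start in their coding exons, between 96.2% (*Fxr1*) and 100% were found at a single place. Stretches across exon junctions, other read lengths and mismatches were not checked. Footprints shared with a copy are therefore not excluded. *Cpeb3* overlaps the antisense gene *A330032B11Rik*, and *Fxr1* overlaps *Dnajc19* on the other strand. Whether the counting used strand is not given in the sources used here, so reads of these overlaps are uncertain.

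The FMRP family and the CPEB pair are paralogs with exons of equal length, and the footprints on these exons are described further down. The first 30 bases of the 110-base exon of the FMRP family, which codes for part of the second KH RNA-binding domain, are shown for chrX:68703663-68703772 (+ strand), chr3:34054222-34054331 (+ strand) and chr11:69649728-69649837 (+ strand) of mm10, with the bases that differ from *Fmr1* in capitals.
Fmr1: gcaaagtaataggaaaaaatggaaagctga
Fxr1: gAaaagtaatTggaaaaaatggCaaAGtTa
Fxr2: gcaaagtGatCggaaaGaaCggGaaAGtga
Over the whole exon, 78 of 110 bases of *Fxr1* and 76 of 110 bases of *Fxr2* were those of *Fmr1*. The following lines show the first 30 bases of the 115-base exon of the CPEB pair (chr19:37054260-37054374 on the - strand and chr11:31927641-31927755 on the + strand), which had a higher ratio of pulldown to input than the other segments of these genes, with the bases of *Cpeb4* that differ from *Cpeb3* in capitals.
Cpeb3: gtgcaaatccgaccgtggaacctaagtgac
Cpeb4: gtgcaGatccgGccCtggaaTctCagtgac
Over the whole of this exon 94 of 115 bases were identical. The CPEB pair also shares a 24-base exon (chr19:37105791-37105814 and chr11:31918801-31918824) with 18 of 24 bases identical.
Cpeb3: ccaggagctatgggcggagacgag
Cpeb4: cAaggaCTtatgggcgAagGAgag

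Between 2047337 and 14637747 CDS counts were present per library, and levels are given as CPM, which here is the CDS count divided by the CDS total of the library after TMM scaling, times 1000000. A member gene had from 73 (*Fmr1*) to 7998 (*Caprin1*) counts in a library. *Eif4g2* served as the check of the siRNA. It was at 503, 537 and 549.7 CPM in the 3 resting PSD95 inputs, at 269 and 269 in the resting knockdown inputs (log2 difference -0.98 ± 0.19, FDR 0.00377) and at 319 and 305 in the knockdown inputs after KCl, where the PSD95 inputs after KCl without siRNA had 579.7, 506 and 728 (log2 difference -0.90 ± 0.19, FDR 0.00642). *Dlg4*, the gene of PSD95, ranged from 353 to 5096 CPM in the PSD95 pulldowns of the KCl experiment, where reads of the bait construct and of the endogenous mRNA cannot be told apart. *Arc*, an activity-induced gene, rose with KCl in the inputs by 3.48 ± 0.20, FDR 3.57e-12 (log2). In the knockdown inputs its rise with KCl was 1.83 ± 0.30, FDR 6.49e-05. The KCl response of *Arc* in inputs with against without knockdown differed by -1.52 ± 0.43, which did not pass. DHPG inputs lay above the resting PSD95 inputs in *Arc* by 1.30 ± 0.21, FDR 0.000206. Neuron markers (7 genes) summed to 5127 to 10655 CPM over all libraries, and each of the 7 neuron, 8 astrocyte, 8 microglia and 9 oligodendrocyte markers had counts in at least 1 library of each kind. Astrocyte markers summed to 533 to 1202 CPM in the inputs of the KCl experiment and 231 to 243 in those of DHPG. Oligodendrocyte markers summed to 158 to 578 and 45.8 to 50.1 CPM in the same libraries. The labels do not tie replicates to separate animals, and p-values measure the spread between these libraries. Replicates of the DHPG inputs and of the knockdown groups differed less from each other than any replicates of the KCl experiment, as given in the description of the processing. Whether they were separate cultures was not tested.

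*Caprin1* had the most footprints of the 9 genes at rest. Per kilobase of CDS, which is the scale on which genes can be set side by side, it stood at 265 ± 6.06 CPM per kb (SD, n = 3) in the resting PSD95-TurboID inputs. The other 8 genes lay between 43.1 ± 2.56 for *Cpeb4* and 85.7 ± 4.06 for *Stau1*. From the top, the order of the means below *Caprin1* was *Stau1*, *Cpeb3* (65.8 ± 10.4), *Fxr2* (60.1 ± 4.58), *Fxr1* (56.6 ± 0.372), *Stau2* (53.7 ± 2.87), *Pum2* (51.0 ± 3.85), *Fmr1* (45.1 ± 4.39) and *Cpeb4*. Of neighbours in this order, the libraries of *Cpeb3* and *Fxr2*, *Fxr2* and *Fxr1*, *Fxr1* and *Stau2*, *Stau2* and *Pum2*, *Pum2* and *Fmr1* and *Fmr1* and *Cpeb4* overlapped, and those of *Caprin1* and *Stau1* and *Stau1* and *Cpeb3* did not. The order differed between groups. In the DHPG pulldowns, *Stau2* had the highest mean of the 9 genes at 92.1 ± 6.20 CPM per kb, with libraries that overlapped those of *Caprin1* at 85.1 ± 8.25, and *Fmr1* was lowest at 13.8 ± 1.21. In the resting knockdown inputs *Cpeb3* was lowest at 22.4 ± 0.0347 (n = 2).

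**Figure D1:**
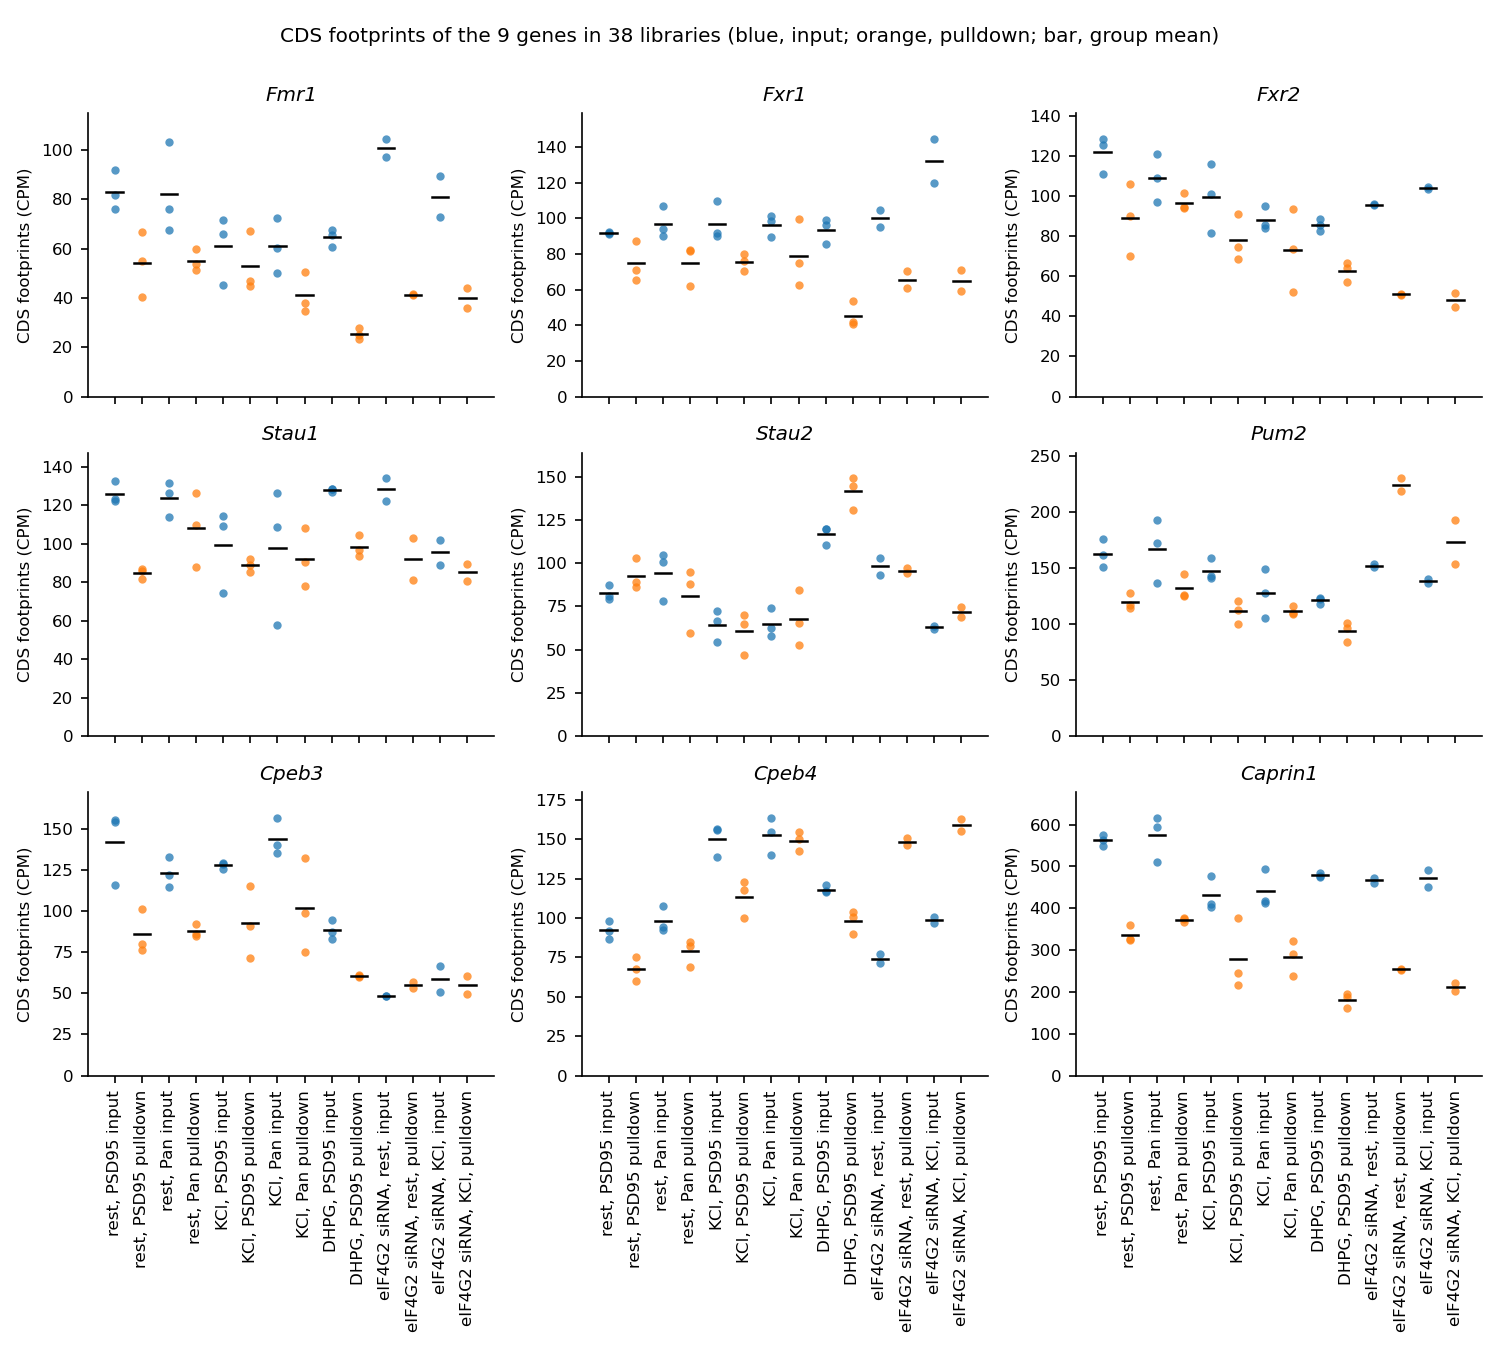
CDS footprints of each gene (CPM, linear axis from 0, own scale in each panel) in all 38 libraries, with inputs in blue, pulldowns in orange and the group mean as a black bar. *Caprin1*, *Fmr1*, *Fxr1*, *Fxr2* and *Stau1* lay lower in pulldowns than in the inputs of the same condition by their group means. *Cpeb4* had higher group means after KCl than at rest, with and without siRNA. *Cpeb3* had a mean of at most 58.9 CPM in the knockdown groups.

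The genes differed in how far their levels moved over the 14 groups. *Fmr1* spanned most, from a mean of 25.4 ± 2.23 CPM in the DHPG pulldowns (n = 3) to 101 ± 5.30 in the resting knockdown inputs (n = 2), a ratio of 3.97. *Stau1* spanned least, from 84.6 ± 2.74 CPM in the resting PSD95 pulldowns to 128 ± 8.23 in the resting knockdown inputs, a ratio of 1.51. *Stau2* and *Cpeb4* had their highest group mean in a pulldown, *Stau2* after DHPG (141 ± 9.52) and *Cpeb4* in the knockdown after KCl (159 ± 5.39), and so did *Pum2*, in the knockdown at rest (225 ± 8.33). The other 6 genes were highest in an input group.

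Whether footprints of these genes were enriched near the dendritic bait was asked by setting the PSD95-TurboID pulldowns against the mean of the PSD95-TurboID and Pan-TurboID inputs. In resting neurons, 6 of the 9 genes were lower in the pulldown, *Fmr1*, *Stau1*, *Pum2*, *Cpeb3*, *Cpeb4* and *Caprin1*, and 0 were higher. Of all genes tested, 31.2% passed the FDR of 0.05 in either direction and 16.4% were lower. The median log2 difference of the 9 genes was -0.54, against -0.04 over all genes tested.

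In the FMRP family, *Fmr1* was at 54.8, 66.9 and 40.4 CPM in the 3 resting PSD95 pulldowns, 75.9, 91.9 and 81.5 in the PSD95 inputs and 67.4, 75.9 and 103 in the Pan inputs. All 3 pulldowns lay below all 6 inputs, replicate 2 by little. The log2 difference was -0.65 ± 0.21, FDR 0.0215 (edgeR quasi-likelihood test with Benjamini-Hochberg adjustment, as for all FDR values here except where limma is named). *Fxr1* was at 87.4, 65.6 and 71.0 CPM in these pulldowns and 90.0 to 107 in the 6 inputs, with no overlap, and its difference of -0.39 ± 0.16, FDR 0.0723 did not pass. With the replicate number as a block it did (-0.39, FDR 0.0439). *Fxr2* was at 90.2, 106 and 70.0 CPM against 97.1 to 128 in the inputs, with overlap (-0.42 ± 0.18, FDR 0.0789), and it passed only when each pulldown was set against the input of its own culture (-0.50, FDR 0.0175).

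Of the Staufen genes only *Stau1* passed. It stood at 85.8, 81.5 and 86.6 CPM in the pulldowns against 114 to 133 in the inputs, without overlap (-0.62 ± 0.20, FDR 0.0206). *Stau2* stood at 86.2, 103 and 89.0 CPM against 77.8 to 105, with groups that overlapped throughout (0.02 ± 0.19, FDR 0.944, 95% interval -0.34 to 0.39). The difference between these genes was not itself tested.

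Among the binders of 3′ UTR sites, *Cpeb3* showed the largest decrease, with 76.3, 101 and 79.8 CPM in the pulldowns and 115 to 155 in the inputs (-0.67 ± 0.18, FDR 0.00856). *Cpeb4* was at 59.8, 75.6 and 67.6 CPM against 87.0 to 108 (-0.54 ± 0.15, FDR 0.00926). *Pum2* was at 117, 128 and 114 CPM against 137 to 193 (-0.52 ± 0.16, FDR 0.0146). For all 3, no pulldown reached the lowest input. *Caprin1* fell most of the 9 genes. It was between 512 and 616 CPM in the inputs and at 361, 325 and 324 in the pulldowns, a 1.75-fold decrease (-0.81 ± 0.17, FDR 0.00160). These calls rested on all 3 replicates. Shares of all genes with a replicate left out are not given here or below, so lost calls cannot be read as particular to these genes. Without replicate 3, 0 of the 9 genes passed, and the 6 that had passed with all replicates then had differences from -0.75 for *Caprin1* (FDR 0.0969) to -0.40 for *Fmr1* (FDR 0.340) and *Pum2* (0.249), and without replicate 2 only *Cpeb3*, *Cpeb4* and *Caprin1* did, with *Fmr1* at -0.78 (FDR 0.0639), *Stau1* at -0.58 (FDR 0.129) and *Pum2* at -0.51 (FDR 0.0816). Without replicate 1 *Cpeb4* was at -0.44 (FDR 0.0791).

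**Figure D2:**
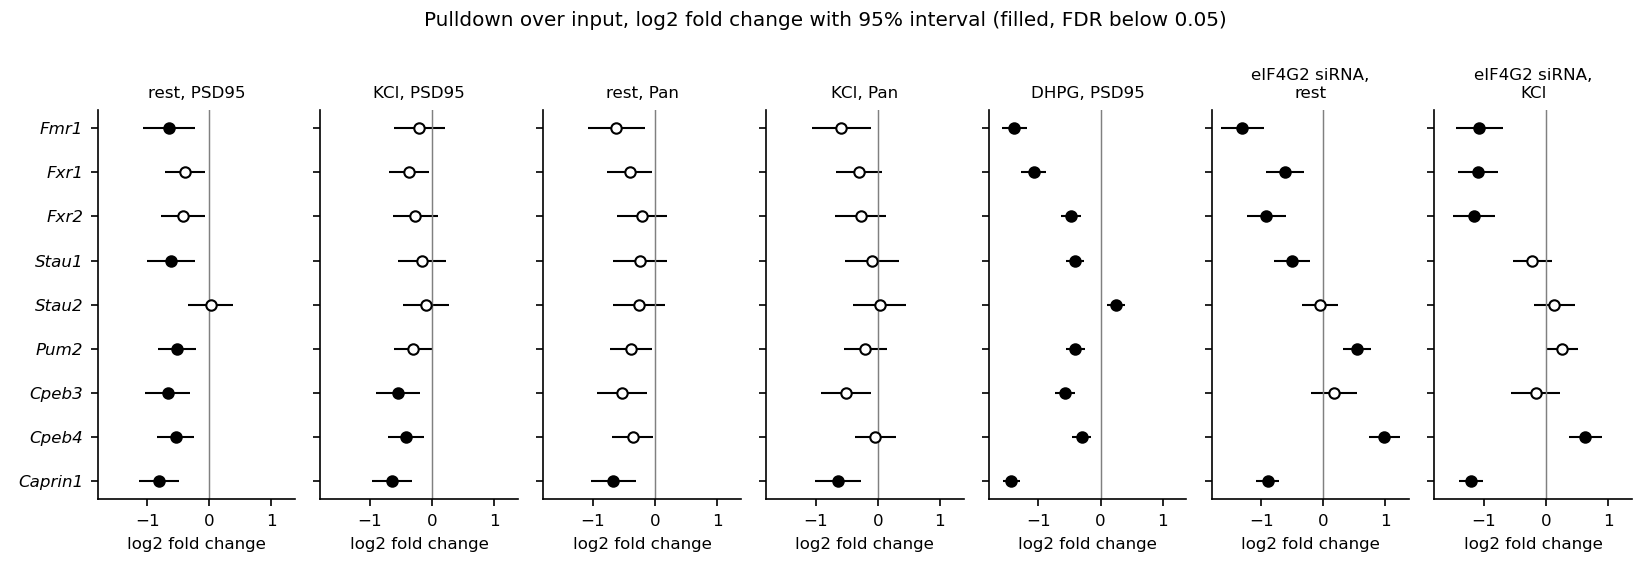
Log2 fold change of pulldown over input for each gene in 7 settings, with 95% intervals as horizontal bars (1.96 standard errors) and filled points where the FDR was below 0.05. *Caprin1* lay below 0 and filled in all 7 panels, *Stau2* was filled after DHPG alone, and *Cpeb4* and *Pum2* lay above 0 in the resting knockdown.

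After KCl, 3 genes were lower in the PSD95 pulldown than in the inputs: *Cpeb3* (-0.55 ± 0.18, FDR 0.0391), *Cpeb4* (-0.43 ± 0.15, FDR 0.0472) and *Caprin1* (-0.65 ± 0.17, FDR 0.0112). Over all genes 18% passed and 6.84% were lower. *Caprin1* was at 215, 376 and 246 CPM in these pulldowns, all below the 6 inputs at 403 to 495. *Cpeb3* was at 71.3, 115 and 90.9 CPM against 126 to 157, and *Cpeb4* at 118, 100.0 and 123 against 139 to 164, again without overlap. Without replicate 1, the difference was -0.35 (FDR 0.254) for *Cpeb3*, -0.40 (FDR 0.168) for *Cpeb4* and -0.51 (FDR 0.0825) for *Caprin1*, and without replicate 3 it was -0.57 (FDR 0.298), -0.47 (FDR 0.311) and -0.62 (FDR 0.262). Without replicate 2, *Cpeb4* did not pass (-0.41, FDR 0.115). Set against the PSD95 inputs alone only *Caprin1* passed, with *Cpeb3* at -0.46, FDR 0.132 and *Cpeb4* at -0.41, FDR 0.103. With no filter on low counts they did not pass either (-0.54, FDR 0.0551 and -0.42, FDR 0.106), nor did *Cpeb4* with size factors of DESeq2 (-0.41, FDR 0.0528). The other 6 genes had differences from -0.37 (*Fxr1*) to -0.09 (*Stau2*) and did not pass.

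The change of the PSD95 pulldown over inputs with KCl was tested directly and was past the threshold for 0 of the 9 genes (0% of all genes by edgeR, with 2.63% and 0 members at an unadjusted p under 0.05, and 0 members by DESeq2). *Fmr1* had a difference of 0.44 ± 0.29 and *Stau1* of 0.46 ± 0.27, each with an interval that held 0, from -0.13 to 1.02 and from -0.08 to 0.99. Input and pulldown of a culture were not paired in this test, so 0 calls do not show that the ratio stayed the same. A fit paired by culture was also run, and its values for this contrast are not given here.

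*Caprin1* was also lower in the pulldowns of the unlocalized bait. In the Pan-TurboID libraries, *Caprin1* was at 377, 374 and 366 CPM in the resting pulldowns and 512, 595 and 616 in the resting inputs (-0.67 ± 0.19, FDR 0.0323), and after KCl at 238, 292 and 322 in the pulldowns and 417, 495 and 412 in the inputs (-0.64 ± 0.19, FDR 0.0380). Both comparisons had no overlap between pulldowns and inputs. *Caprin1* was the only 1 of the 9 genes to pass at rest, where 9.55% of all genes passed and 5.03% were lower, and the only 1 after KCl, where 8.89% passed and 3.7% were lower. At rest it did not pass without replicate 2 (-0.62, FDR 0.170) or replicate 3 (-0.62, FDR 0.321), and after KCl it did not pass without replicate 1 (-0.54, FDR 0.107), replicate 2 (-0.59, FDR 0.142) or replicate 3 (-0.79, FDR 0.247), nor with no filter on low counts (-0.65, FDR 0.0515).

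*Fmr1* was also lower in the resting Pan pulldowns, at 51.2, 53.8 and 60.0 CPM against 67.4, 75.9 and 103, all pulldowns below all inputs, though its difference of -0.62 ± 0.24, FDR 0.0875 did not pass, and with the replicate number as a block it did (-0.61, FDR 0.0387). With pulldown and input paired by culture, 6 genes passed at rest, where 32.9% of all genes did, which were *Fmr1*, *Fxr1*, *Pum2*, *Cpeb3*, *Cpeb4* and *Caprin1*, and 3 passed after KCl, where 32% of all genes did, *Fmr1* (-0.58, FDR 0.00947), *Cpeb3* (-0.54, FDR 0.00536) and *Caprin1*. The direct test of whether the PSD95 pulldown was enriched beyond the Pan pulldown, each over its inputs, was past the threshold for 0 of the 9 genes (0.00769% of all genes by edgeR, with 1.30% of all genes and 0 members at an unadjusted p under 0.05, and 0 members by DESeq2). The member differences ran from -0.25 ± 0.17 for *Cpeb4* to 0.17 ± 0.24 for *Fmr1*. The contrast averaged rest and KCl. It did not pair input and pulldown of a culture, whose deviations from group means correlated (median 0.510). So 0 calls do not show that the baits were alike. The fit paired by culture was also run on this contrast, and its values are not given here.

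KCl depolarization was followed by a rise in footprints on *Cpeb4* and a fall on *Stau2* and *Caprin1* in the inputs of the 2 baits, which were fitted as 1 contrast, where 15.4% of all genes passed. *Cpeb4* rose from 91.7, 97.9 and 87.0 CPM to 156, 139 and 156 in the PSD95 inputs and from 94.1, 92.3 and 108 to 155, 139.8 and 164 in the Pan inputs. All 6 inputs after KCl lay above all 6 at rest, a 1.56-fold increase (0.64 ± 0.12, FDR 0.000459, higher in 6 of 6 pairs of libraries with the same bait and number). *Cpeb4* rose in the pulldowns as well. In the PSD95 pulldowns it went from 59.8, 75.6 and 67.6 to 118, 100.0 and 123 CPM (0.76 ± 0.17, FDR 0.00761) and in the Pan pulldowns from 69.1, 82.5 and 84.7 to 142, 155 and 150.1 (0.93 ± 0.17, FDR 0.00115), without overlap in either. It was the only 1 of the 9 genes to pass in the pulldowns, where 6.6% of all genes passed with PSD95-TurboID and 5.03% with Pan-TurboID. Without replicate 3, the KCl difference of *Cpeb4* was 0.62 (FDR 0.0573) in the inputs, 0.67 (FDR 0.240) in the PSD95 pulldowns and 0.99 (FDR 0.100) in the Pan pulldowns, and in the PSD95 pulldowns it was 0.65 (FDR 0.0512) without replicate 1 and 0.93 (FDR 0.0513) without replicate 2.

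*Stau2* fell from 87.4, 79.0 and 80.8 CPM to 54.4, 72.1 and 66.6 in the PSD95 inputs and from 101, 77.8 and 105 to 62.5, 58.0 and 74.1 in the Pan inputs, with all inputs after KCl below all inputs at rest (-0.48 ± 0.15, FDR 0.0344). *Caprin1* fell too. Its 6 resting inputs lay at 512 to 616 CPM and its 6 inputs after KCl at 403 to 495, also without overlap (-0.41 ± 0.13, FDR 0.0333). Both were near the threshold. Without replicate 1, 2 or 3 *Stau2* had -0.37 (FDR 0.158), -0.51 (FDR 0.0810) and -0.51 (FDR 0.214), and *Caprin1* had -0.42 (FDR 0.0516), -0.43 (FDR 0.0939) and -0.34 (FDR 0.367). After removal of each library's trend with CDS length neither passed (*Stau2* -0.37, FDR 0.104 and *Caprin1* -0.26, FDR 0.232), and with no filter on low counts *Caprin1* did not pass (-0.42, FDR 0.0514).

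*Fmr1* lay at 67.4 to 103 CPM in the resting inputs and at 45.4 to 72.4 after KCl, and did not pass (-0.46 ± 0.17, FDR 0.0638). With the replicate number as a block, *Fmr1* (-0.47, FDR 0.0231) and *Stau1* (-0.40, FDR 0.0407) also passed, which made 5 of the 9 genes, where 19.5% of all genes passed with the block. *Stau1* was at 114 to 133 CPM at rest and 57.6 to 127 after KCl, where replicate 1 was lowest with both baits. *Fxr1* and *Cpeb3* had KCl differences of 0.01 ± 0.13 and 0.01 ± 0.15 in the inputs, with 95% intervals of -0.25 to 0.27 and -0.28 to 0.29.

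**Figure D3:**
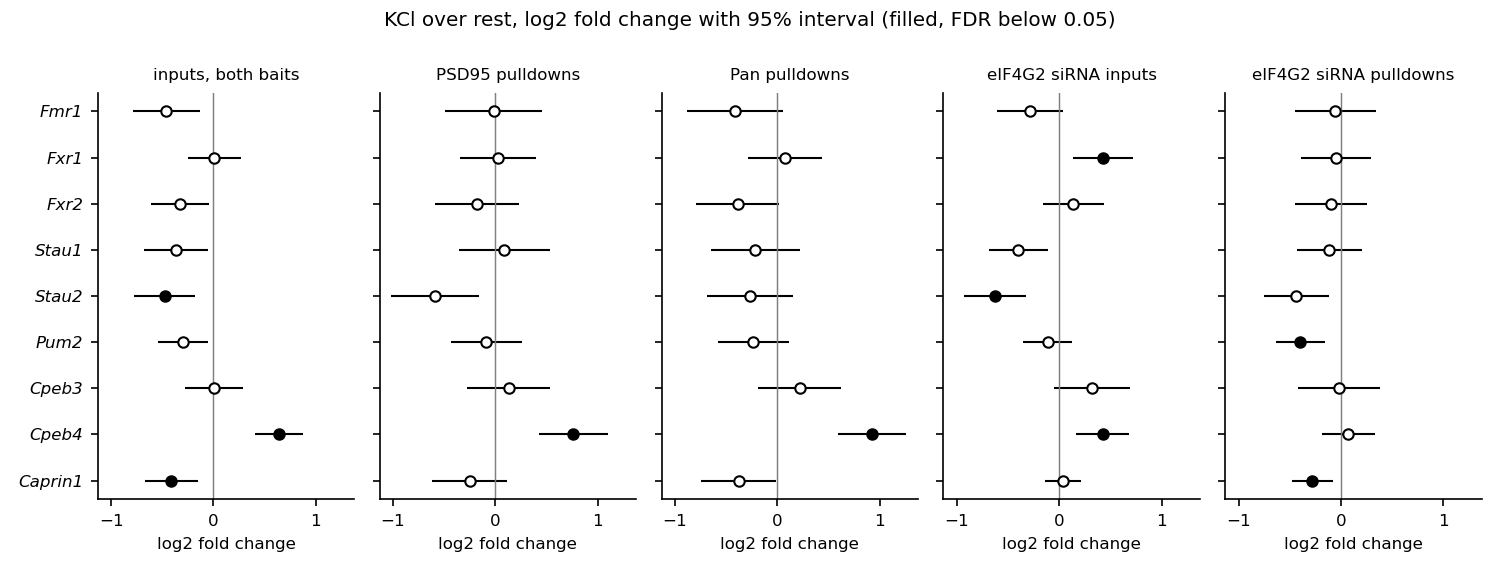
Log2 fold change of KCl over rest for each gene, with 95% intervals as horizontal bars and filled points where the FDR was below 0.05, in the inputs of both baits, the PSD95 and Pan pulldowns and the inputs and pulldowns of the eIF4G2 knockdown. *Cpeb4* lay to the right of 0 and filled in 4 of 5 panels, and *Stau2* lay to the left of 0 in all 5.

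In the DHPG experiment, the pulldown differed from its own input for all 9 genes, 8 lower and *Stau2* higher. In this experiment most genes passed (79.7% of all genes tested, 39.3% lower), so the count of 9 is close to the background. The median log2 difference of the 9 genes was -0.48, against 0.05 over all genes. *Caprin1* went from 484, 478 and 474 CPM in the inputs to 161, 187 and 194 in the pulldowns, a 2.70-fold decrease (-1.43 ± 0.07, FDR 1.59e-12). *Fmr1* went from 60.5, 65.6 and 67.7 to 27.9, 23.5 and 24.8 CPM, 2.61-fold lower (-1.39 ± 0.10, FDR 4.29e-10). *Fxr1* went from 85.4, 99.1 and 96.4 to 40.6, 53.4 and 41.9 CPM (-1.07 ± 0.10, FDR 2.30e-08). In these 3 genes every pulldown lay below every input.

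The remaining decreases were smaller, from -0.58 ± 0.08 for *Cpeb3* through -0.48 ± 0.08 for *Fxr2*, -0.41 ± 0.07 for *Stau1* and -0.40 ± 0.08 for *Pum2* to -0.30 ± 0.08 for *Cpeb4*, whose FDR was 0.00153. *Stau2* rose from 110.2, 119.9 and 119.8 CPM in the inputs to 149, 145 and 131 in the pulldowns, with no overlap (0.25 ± 0.08, FDR 0.00628). The rise was 0.14 (FDR 0.190) without replicate 1 and 0.25 (FDR 0.0551) without replicate 2, and removal of the trend with CDS length reduced it to 0.06 (FDR 0.443). It was not even along the CDS. The median ratio of counts in the 3′ part to those in the 5′ part, described further down, was 2.43 in inputs and 9.02 in pulldowns.

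Set against the resting PSD95 inputs of the KCl experiment, the DHPG inputs had more footprints on *Stau2* and *Cpeb4* and fewer on *Fxr2*, *Pum2*, *Cpeb3* and *Caprin1*, 6 of 9 genes where 32.8% of all genes passed. *Cpeb3* moved most, from 116, 155 and 154 CPM in the resting inputs to 94.5, 87.4 and 83.1 (-0.71 ± 0.14, FDR 0.000826). *Stau2* moved from 87.4, 79.0 and 80.8 to 110.2, 119.9 and 119.8 CPM (0.46 ± 0.11, FDR 0.00478) and *Cpeb4* from 91.7, 97.9 and 87.0 to 116, 121 and 117 (0.32 ± 0.12, FDR 0.0416). None of these groups overlapped. *Fxr2* (-0.54 ± 0.14, FDR 0.00641), *Pum2* (-0.46 ± 0.11, FDR 0.00315) and *Caprin1* (-0.27 ± 0.09, FDR 0.0391) were lower. *Caprin1* and *Cpeb4* did not pass when any 1 of the 3 replicate numbers was left out, with *Caprin1* at -0.28 (FDR 0.0844), -0.26 (FDR 0.186) and -0.25 (FDR 0.132) and *Cpeb4* at 0.33 (FDR 0.125), 0.35 (FDR 0.0982) and 0.28 (FDR 0.186) without replicate 1, 2 and 3. *Caprin1* did not pass with size factors of DESeq2 (-0.22, FDR 0.0841), with DESeq2 (-0.22, FDR 0.0521) or with no filter (-0.23, FDR 0.123). *Stau2* was at 0.41 (FDR 0.0527) without replicate 2 and 0.42 (FDR 0.0568) without replicate 3. In the same libraries astrocyte and oligodendrocyte markers were lower after DHPG, as given above, and their part in the result was not tested. Fewer cells of a type and less RNA per cell cannot be told apart in such libraries.

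The DHPG pulldowns differed from the resting PSD95 pulldowns for 8 of 9 genes, where 47.7% of all genes passed. *Stau2* rose from 86.2, 103 and 89.0 to 149, 145 and 131 CPM (0.55 ± 0.11, FDR 0.000813) and *Cpeb4* from 59.8, 75.6 and 67.6 to 104, 100.5 and 89.6 (0.48 ± 0.12, FDR 0.00348, and 0.34, FDR 0.0991 without replicate 1). *Fmr1* fell by the largest amount, from 54.8, 66.9 and 40.4 to 27.9, 23.5 and 24.8 CPM (-1.18 ± 0.16, FDR 2.79e-05). *Caprin1* (-0.96 ± 0.10, FDR 1.15e-06), *Fxr1* (-0.79 ± 0.14, FDR 0.000240), *Fxr2* (-0.58 ± 0.14, FDR 0.00273), *Cpeb3* (-0.56 ± 0.14, FDR 0.00316) and *Pum2* (-0.42 ± 0.11, FDR 0.00429) fell too. Without replicate 2, *Fxr2* was at -0.43 (FDR 0.0678), *Cpeb3* at -0.40 (FDR 0.0735) and *Pum2* at -0.36 (FDR 0.0671), and *Fxr2* was at -0.51 (FDR 0.0511) without replicate 1. *Stau1* alone did not pass (0.16 ± 0.10, FDR 0.212). Astrocyte markers summed to 697 to 1437 CPM in the 12 pulldowns of the KCl experiment and to 307 to 325 in the 3 DHPG pulldowns, and oligodendrocyte markers to 100.5 to 511 and 27.4 to 36.7. The ranges did not overlap, and their part in the result was not tested.

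The pulldown over its own input was then compared between DHPG and rest. It was lower after DHPG for *Fmr1* (-0.78 ± 0.23, FDR 0.0481), *Fxr1* (-0.78 ± 0.19, FDR 0.0243) and *Caprin1* (-0.69 ± 0.13, FDR 0.00700), 3 of 9 genes where 6.81% of all genes passed. The other 6 genes had differences between -0.04 (*Fxr2*) and 0.18 (*Stau1*). Without replicate 1, these 3 genes had -0.84 (FDR 0.219), -0.64 (FDR 0.207) and -0.54 (FDR 0.152), and without replicate 2 they had -0.60 (FDR 0.308), -0.94 (FDR 0.0823) and -0.73 (FDR 0.112). Without replicate 3 *Fmr1* was at -0.87 (FDR 0.108) and *Fxr1* at -0.74 (FDR 0.172), and *Caprin1* passed. *Fmr1* was at -0.75, FDR 0.0520 with no filter on low counts and at -0.84, FDR 0.0529 with the trend with CDS length removed.

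In the eIF4G2 knockdown at rest, the FMRP family and *Caprin1* again lay lower in the pulldown than in its input, while *Pum2* and *Cpeb4* lay higher, 7 of 9 genes with *Stau1* lower as well. Of all genes 45.5% passed and 23.4% were lower, and the median log2 difference was -0.51 over the 9 genes and -0.01 over all genes. *Fmr1* was at 105 and 97.0 CPM in the 2 inputs and 41.0 and 41.4 in the 2 pulldowns (-1.30 ± 0.18, FDR 1.32e-06), *Fxr1* at 105 and 95.1 in the inputs and 70.4 and 60.8 in the pulldowns (-0.61 ± 0.16, FDR 0.00236), and *Fxr2* at 96.0 and 95.3 in the inputs and 51.3 and 50.7 in the pulldowns (-0.92 ± 0.16, FDR 3.87e-05). *Caprin1* was at 461 and 473 CPM in the inputs and 255 and 252 in the pulldowns (-0.90 ± 0.09, FDR 2.26e-08). *Stau1*, at 134 and 122 CPM in the inputs and 80.9 and 103 in the pulldowns (-0.51 ± 0.15, FDR 0.00683), did not pass without replicate 1 of the inputs (-0.45, FDR 0.0931) or of the pulldowns (-0.34, FDR 0.120).

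*Cpeb4* was higher in these pulldowns, from 71.5 and 77.0 CPM in the inputs to 151 and 146, 1.98-fold (0.98 ± 0.13, FDR 8.56e-07). *Pum2* went from 154 and 151 to 219 and 230.4 CPM (0.54 ± 0.12, FDR 0.000506), and removal of the trend with CDS length reduced this to 0.08 (FDR 0.665). *Pum2* has the longest CDS of the 9 genes. *Stau2* (-0.06 ± 0.15, FDR 0.788) and *Cpeb3* (0.17 ± 0.19, FDR 0.494) did not pass. The differences of *Cpeb4* and *Pum2* were not even along the CDS. The ratio of counts in the 3′ part to those in the 5′ part is described further down. Over all knockdown libraries, its median was 0.671 in inputs and 3.42 in pulldowns for *Cpeb4*, and 0.543 and 3.51 for *Pum2*.

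After KCl in the knockdown, the pulldown was lower than its input for *Fmr1*, *Fxr1*, *Fxr2* and *Caprin1* and higher for *Cpeb4*, 5 of 9 genes where 48.8% of all genes passed and 24.8% were lower. *Caprin1* was at 492 and 452 CPM in the inputs and 222 and 202 in the pulldowns (-1.21 ± 0.10, FDR 2.04e-10), and *Fxr2* at 104 and 103 in the inputs and 51.5 and 44.8 in the pulldowns (-1.16 ± 0.17, FDR 3.55e-06). *Fxr1* (-1.09 ± 0.17, FDR 5.08e-06) and *Fmr1* (-1.08 ± 0.19, FDR 4.30e-05) had differences of about the same size. *Cpeb4* was at 96.7 and 101 CPM in the inputs and 155 and 163 in the pulldowns (0.63 ± 0.14, FDR 0.000414), or 0.32 (FDR 0.0684) with the trend with CDS length removed.

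KCl within the knockdown raised *Fxr1* and *Cpeb4* and lowered *Stau2* in the inputs, where 19.3% of all genes passed. *Cpeb4* went from 71.5 and 77.0 to 96.7 and 101 CPM (0.43 ± 0.13, FDR 0.0234), *Stau2* from 103 and 93.3 to 61.9 and 63.7 (-0.63 ± 0.15, FDR 0.00422) and *Fxr1* from 105 and 95.1 to 145 and 120.1 (0.43 ± 0.15, FDR 0.0427). With 2 libraries a group, *Fxr1* and *Cpeb4* lost the call when any 1 of these 4 inputs was left out, with *Fxr1* between 0.28 (FDR 0.408, without replicate 1 after KCl) and 0.54 (FDR 0.0613, without replicate 2 after KCl) and *Cpeb4* between 0.37 (FDR 0.265) and 0.48 (FDR 0.114) without replicate 1 and 2 at rest. *Stau2* did not pass without replicate 1 at rest (-0.56, FDR 0.101) or after KCl (-0.61, FDR 0.0584).

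In the knockdown pulldowns, KCl lowered *Pum2* from 219 and 230.4 to 154 and 193 CPM (-0.40 ± 0.12, FDR 0.0217) and *Caprin1* from 255 and 252 to 222 and 202 (-0.28 ± 0.10, FDR 0.0457), where 22.2% of all genes passed. *Pum2* was at -0.24 (FDR 0.212) without replicate 1 after KCl and -0.37 (FDR 0.0762) without replicate 2 at rest. *Caprin1* passed only without replicate 1 of the KCl pulldowns and was at -0.22 (FDR 0.179) without replicate 2. It did not pass with size factors of DESeq2 (-0.26, FDR 0.0652), the likelihood ratio test (-0.28, FDR 0.0518), DESeq2 (-0.26, FDR 0.0848) or the length trend removed (-0.23, FDR 0.106). *Cpeb4* was at 151 and 146 CPM at rest and 155 and 163 after KCl (log2 difference 0.07 ± 0.13, 95% interval -0.19 to 0.33). The KCl response of the inputs was tested against that without knockdown and was past the threshold for 0 of the 9 genes (0.00759% of all genes by edgeR, with 2.79% of all genes and 0 members at an unadjusted p under 0.05, and 0 members by DESeq2).

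Of the 9 genes only *Cpeb3* passed between knockdown inputs and the PSD95 inputs without siRNA. It was at 48.2 and 48.3 CPM in the 2 resting knockdown inputs against 116, 155 and 154 in the resting inputs, 2.94-fold lower (-1.55 ± 0.23, FDR 0.000301), and at 66.8 and 51.0 against 126, 129 and 128 after KCl (-1.06 ± 0.23, FDR 0.00818). The groups did not overlap in either. Of all genes 3.91% passed at rest and 5.32% after KCl. Without replicate 2 of both experiments the difference was -1.47 (FDR 0.149) at rest and -0.87 (FDR 0.423) after KCl, and after KCl it was -1.34 (FDR 0.0774) without replicate 1. *Cpeb3* was at 94.5, 87.4 and 83.1 CPM in the DHPG inputs. With DESeq2, and with the trend with CDS length removed, 2 of the 9 genes passed in the inputs after KCl. Microglia markers summed to 1.29 to 5.39 CPM in the inputs of the KCl experiment and to 12.9 to 24.3 in the knockdown inputs, and their part in the result was not tested.

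In the pulldowns at rest, the knockdown went with more footprints on *Pum2* and *Cpeb4* and fewer on *Fxr2*, where 9.13% of all genes passed. *Cpeb4* stood at 151 and 146 CPM against 59.8, 75.6 and 67.6 in the resting PSD95 pulldowns (1.11 ± 0.18, FDR 0.000306), *Pum2* at 219 and 230.4 against 117, 128 and 114 (0.88 ± 0.18, FDR 0.00217) and *Fxr2* at 51.3 and 50.7 against 90.2, 106 and 70.0 (-0.83 ± 0.22, FDR 0.0184). None of the 3 overlapped. Without replicate 1 they were at 1.03 (FDR 0.0674), 0.93 (FDR 0.0803) and -0.81 (FDR 0.235), and without replicate 2 *Pum2* was at 0.92 (FDR 0.141) and *Fxr2* at -0.64 (FDR 0.444). After KCl the difference passed for *Pum2* (0.61 ± 0.18, FDR 0.0215, or 0.28 and FDR 0.344 without the trend with CDS length, and 0.62, FDR 0.0545 with no filter), *Cpeb3* (-0.79 ± 0.23, FDR 0.0223) and *Fxr2* (-0.72 ± 0.22, FDR 0.0268), where 18.9% of all genes passed. Without replicate 2 these were 0.48 (FDR 0.397), -0.47 (FDR 0.482) and -0.51 (FDR 0.429), without replicate 1 *Pum2* was at 0.69 (FDR 0.119) and *Fxr2* at -0.87 (FDR 0.133), and without replicate 3 *Cpeb3* was at -0.77 (FDR 0.0731). Microglia markers summed to 0.00 to 5.60 CPM in the pulldowns of the KCl experiment and to 8.81 to 18.2 in the knockdown pulldowns, and their part in the result was not tested.

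The pulldown over its own input differed between neurons with and without knockdown at rest for *Cpeb4*, by 1.43 ± 0.26, FDR 0.00366, where 1.03% of all genes passed. Without siRNA the resting PSD95 pulldown of *Cpeb4* lay below its inputs and with siRNA above them. The difference was 1.27 (FDR 0.568) without replicate 1 and 1.56 (FDR 0.417) without replicate 2. *Pum2* had 0.99 ± 0.25, FDR 0.0624 and *Cpeb3* 0.88 ± 0.32, FDR 0.319. After KCl, 0 of the 9 genes passed (0.0607% of all genes by edgeR, with 9.71% of all genes and 6 members at an unadjusted p under 0.05, and 1 member by DESeq2). The difference for *Cpeb4* was then 1.01 ± 0.26, FDR 0.185, and *Fmr1* had -0.89 ± 0.36, FDR 0.414.

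Footprints in the 5′ UTR, where upstream open reading frames are read, made up very different shares of each gene's counts. In the inputs of the KCl experiment, 5′ UTR counts were 36.3% (exact 95% interval 35.3% to 37.3%) of the 5′ UTR and CDS counts of *Stau2* (24.2% to 54.0% over 12 libraries). They were 27.7% (exact 95% interval 27.0% to 28.4%) for *Pum2* and 27.5% (exact 95% interval 26.8% to 28.3%) for *Stau1*. These 3 genes, each with at least 1 upstream ATG, lay above the 21.5% of all genes together. *Fxr2* (23.1%) and *Fmr1* (20.7%), which have no upstream ATG, lay slightly above and slightly below it. A link between upstream ATGs and the share was not tested, and shares were not adjusted for 5′ UTR length. *Cpeb3*, with 2 upstream ATGs, was at 3.51% and *Caprin1* at 6.01%. *Fxr1* was at 0.441% and *Cpeb4* at 0.187%. Counts were assigned by the 5′ ends of reads, so a footprint that starts before the start codon and reaches into the CDS was counted in the 5′ UTR. Intervals are exact binomial and cover counting error only.

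The pooled 5′ UTR share of the 7 genes with enough 5′ UTR counts was lower in pulldowns than in inputs in each experiment, except for *Fxr2* in the knockdown. No test was made on the shares. For *Stau2* it was 17.8% (exact 95% interval 16.9% to 18.7%) in the pulldowns of the KCl experiment, and for all genes together 9.90%. After DHPG, *Stau2* was at 25.7% in inputs and 7.90% in pulldowns (all genes 16.2% and 5.57%), with no overlap between libraries (23.7% to 28.1% and 6.06% to 10.3%). In the knockdown, *Stau2* was at 29.8% and 11.4%, and *Pum2* at 20.1% and 7.83%. *Fxr2* in the knockdown was at 17.5% in inputs and 18.6% in pulldowns, with overlapping libraries (13.1% to 26.2% and 12.2% to 26.2%).

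**Figure D4:**
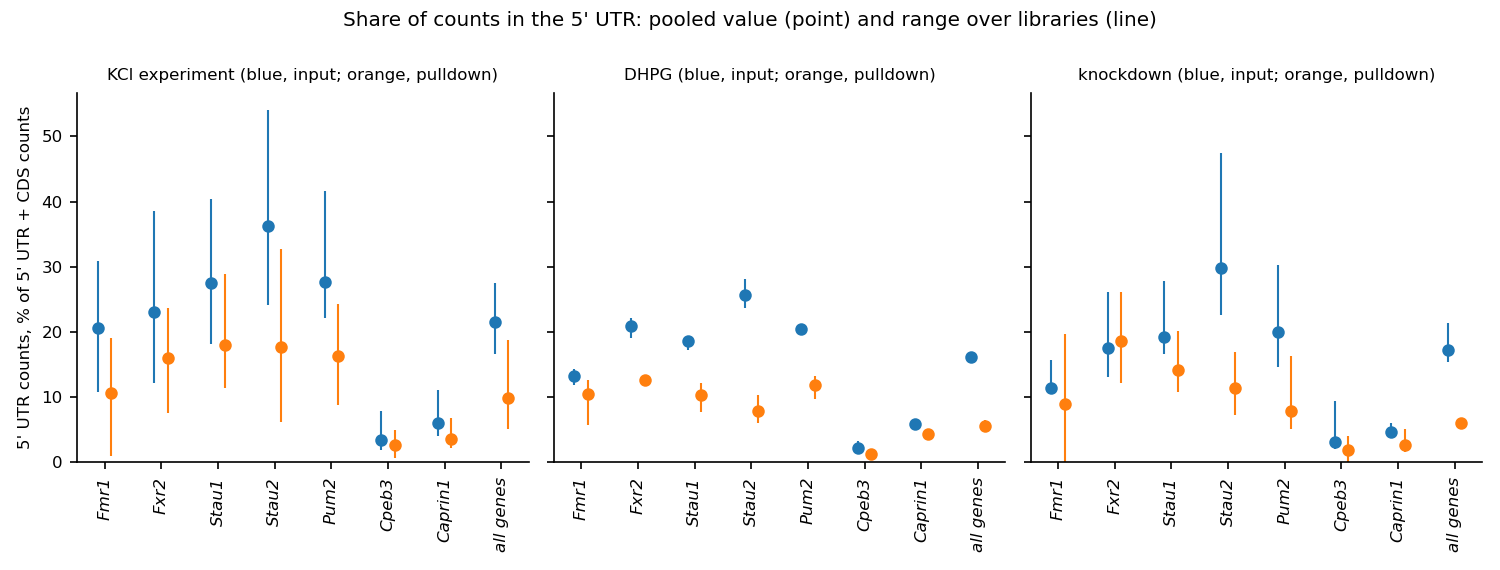
Share of 5′ UTR counts in the 5′ UTR and CDS counts of a gene (percent, linear axis from 0), pooled over libraries as points and from the lowest to the highest library as lines, for inputs (blue) and pulldowns (orange) in the KCl, DHPG and knockdown experiments. *Stau2* had the highest share of the 7 genes in the inputs of each experiment, and the pulldown points lay below the input points except for *Fxr2* in the knockdown.

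On the scale of CDS totals, 5′ UTR counts in the resting PSD95 pulldown were lower than in the inputs for 5 of the 7 genes with enough counts, where 61.6% of all genes passed and the median over all genes was -1.59. *Stau2* had -1.88 ± 0.49, FDR 0.00327, *Fmr1* -1.95 ± 0.61, FDR 0.00732, *Caprin1* -1.88 ± 0.48, FDR 0.00302, *Pum2* -1.67 ± 0.45, FDR 0.00378 and *Stau1* -1.27 ± 0.45, FDR 0.0151. When 5′ UTR counts were scaled to their own totals, 0 of the 7 genes passed, and *Fxr2* (0.55), *Stau1* (0.28) and *Cpeb3* (0.20) then lay above 0. Without replicate 3, 0 passed either, and the 5 genes named had values from -1.33 (*Stau1*, FDR 0.200) to -1.75 (*Stau2*, FDR 0.181). Shares of all genes are not given for fits on 5′ UTR totals or with a replicate left out. These losses therefore cannot be read as particular to the members. After KCl, *Stau2* (-1.44 ± 0.47, FDR 0.0454) and *Pum2* (-1.28 ± 0.44, FDR 0.0478) passed, where 12.7% of all genes did. With the replicate number as a block, 6 of 7 genes passed, where 48.7% of all genes did. *Stau2* and *Pum2* were at -1.30 (FDR 0.0500) and -1.06 (FDR 0.0700) without replicate 1, and -1.25 (FDR 0.527) and -1.24 (FDR 0.527) without replicate 3, and 5 genes passed without replicate 2. *Pum2* did not pass with no filter on low counts (-1.28, FDR 0.0597). After DHPG all 7 genes were lower in the pulldown, from -1.89 (*Caprin1*) to -1.34 (*Fxr2*), where 95.2% of all genes passed, and with the 5′ UTR totals 0 passed and *Fxr2*, *Stau1*, *Pum2* and *Cpeb3* lay above 0.

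With KCl, 0 of these genes passed in their 5′ UTR counts. In the inputs 0 of 7 genes passed (0.433% of all genes by edgeR, with 4.85% of all genes and 0 members at an unadjusted p under 0.05, and 0 by DESeq2), with *Stau2* at 0.38 ± 0.35 and *Cpeb3* at 1.01 ± 0.54. In the PSD95 pulldowns 0 of 7 passed (0.275% of all genes, 13.6% of all genes and 0 members at an unadjusted p under 0.05, and 0 by DESeq2). The estimates still leaned upward. Their median log2 difference was 0.62 over the 7 genes and 0.65 over all genes tested, against 0.16 and 0.17 in the inputs. In the knockdown inputs 0 of 6 passed (3.4% of all genes, 18.2% of all genes and 3 members at an unadjusted p under 0.05, 2 by the likelihood ratio test and 0 by DESeq2), with *Fxr2* at 1.08 ± 0.36, FDR 0.109, *Pum2* at 0.80 ± 0.35, FDR 0.227 and *Stau2* at 0.75 ± 0.28, FDR 0.153.

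Over all genes, footprints lay further toward the 3′ end of the CDS in pulldowns than in inputs, and the medians of the 9 genes lay below those of all genes. The CDS was cut at its midpoint into a 5′ part and a 3′ part by exon segments, and the log2 ratio of 3′ over 5′ counts was compared by limma. In PSD95 pulldowns against inputs the ratio was higher for 6 of 9 genes, where 52.4% of all genes passed. The median of the 9 genes was 0.82, against 1.00 over all genes, 90.8% of which lay above 0. *Fxr1* had the largest shift of the members (1.25 ± 0.29, FDR 0.00127), with lowest, median and highest 3′ over 5′ ratios of 0.242, 0.664 and 1.02 in 12 inputs and 0.602, 1.29 and 2.49 in 12 pulldowns of both baits. *Cpeb3* (0.92 ± 0.28, FDR 0.00734), *Fxr2* (0.91 ± 0.24, FDR 0.00284), *Stau2* (0.87 ± 0.25, FDR 0.00579), *Pum2* (0.82 ± 0.24, FDR 0.00665) and *Caprin1* (0.61 ± 0.20, FDR 0.0147) passed as well. *Fmr1* did not pass (-0.04 ± 0.28, FDR 0.917), with ratios of 0.545, 0.844 and 1.08 in inputs and 0.457, 0.895 and 1.70 in pulldowns. Without replicate 3 only *Fxr1* passed, and *Caprin1* was at 0.44 (FDR 0.250), *Pum2* at 0.96 (FDR 0.0605), *Fxr2* at 0.71 (FDR 0.107), *Cpeb3* at 0.82 (FDR 0.144) and *Stau2* at 0.84 (FDR 0.0915).

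In Pan pulldowns the ratio was higher for *Cpeb3* (1.05 ± 0.28, FDR 0.00479), *Stau2* (0.89 ± 0.25, FDR 0.00777) and *Pum2* (0.81 ± 0.24, FDR 0.00987), 3 of 9 genes where 43% of all genes passed (median of the 9 genes 0.57, against 0.85 over all genes). Without replicate 3, 0 passed, with *Cpeb3* at 1.13 (FDR 0.0799), and without replicate 2 only *Cpeb3* did, with *Pum2* at 0.70 (FDR 0.0671) and *Stau2* at 0.71 (FDR 0.0913). After DHPG all 9 passed, from 0.64 ± 0.12, FDR 0.000113 for *Caprin1* to 1.89 ± 0.13, FDR 3.34e-10 for *Cpeb4*, where 73.8% of all genes passed (median of the 9 genes 0.92, against 1.13 over all genes), and *Fmr1* was at 0.52 (FDR 0.0573) without replicate 3. In the knockdown 7 of 9 passed, where 57.4% of all genes did, and *Pum2* (2.59 ± 0.16, FDR 3.56e-08) and *Cpeb4* (2.40 ± 0.18, FDR 2.40e-07) had the largest shifts of the members. The median of the 9 genes was 0.98, against 1.06 over all genes. *Fmr1* in the knockdown was at 0.67 ± 0.27, FDR 0.0499, and it did not pass in 6 of the 8 cases with 1 library left out, between 0.46 (FDR 0.163) and 0.76 (FDR 0.0675). KCl changed the ratio in the inputs past the threshold for 0 of the 9 genes (3.63% of all genes by limma, with 1 member, *Stau2*, at an unadjusted p under 0.05, and no other tool was run), and member differences ran from -0.57 ± 0.25, FDR 0.213 for *Stau2* to 0.19 ± 0.34, FDR 0.829 for *Cpeb4*.

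Along the exon segments, the ratio of pulldown to input reached its highest values in *Pum2*, *Cpeb3* and *Cpeb4*, toward the 3′ end. A shift toward the 3′ end was shared by most genes, as given above, and no value per segment was computed over all genes. Over all 19 pulldowns and 19 inputs, mean pulldown CPM over mean input CPM in *Pum2* was 0.284 in the first segment, 0.631 in segment 13 of 20, 1.32 in segment 16, and then 2.34, 2.22, 2.66 and 2.56 in the last 4. In segment 19 (chr12:8748761-8748953, 193 bases) the ratio lay between 1.37 and 6.39 over the 7 pairs of pulldown and input groups, and in segment 20 between 1.29 and 9.60, above 1 in 7 of 7 in both.

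In *Cpeb3* the ratio was 0.453 over the first segment, which at 1008 bases holds much of the CDS, and reached 2.37 in the 115-base segment 8. In *Cpeb4* it was 0.579 over the 1125-base first segment and reached 2.70 in its 115-base segment 7. These are the paired exons shown above, and their ratio was above 1 in 7 of 7 group pairs in both genes, from 1.04 to 3.83 in *Cpeb3* and from 1.03 to 12.3 in *Cpeb4*. Density in these exons in the inputs was 0.629 and 0.742 of the gene's own mean, at percentiles 30.3 and 42.5 among 7749 internal segments of 105 to 115 bases in all genes. No test was made on single segments, which were described after their values were seen.

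**Figure D5:**
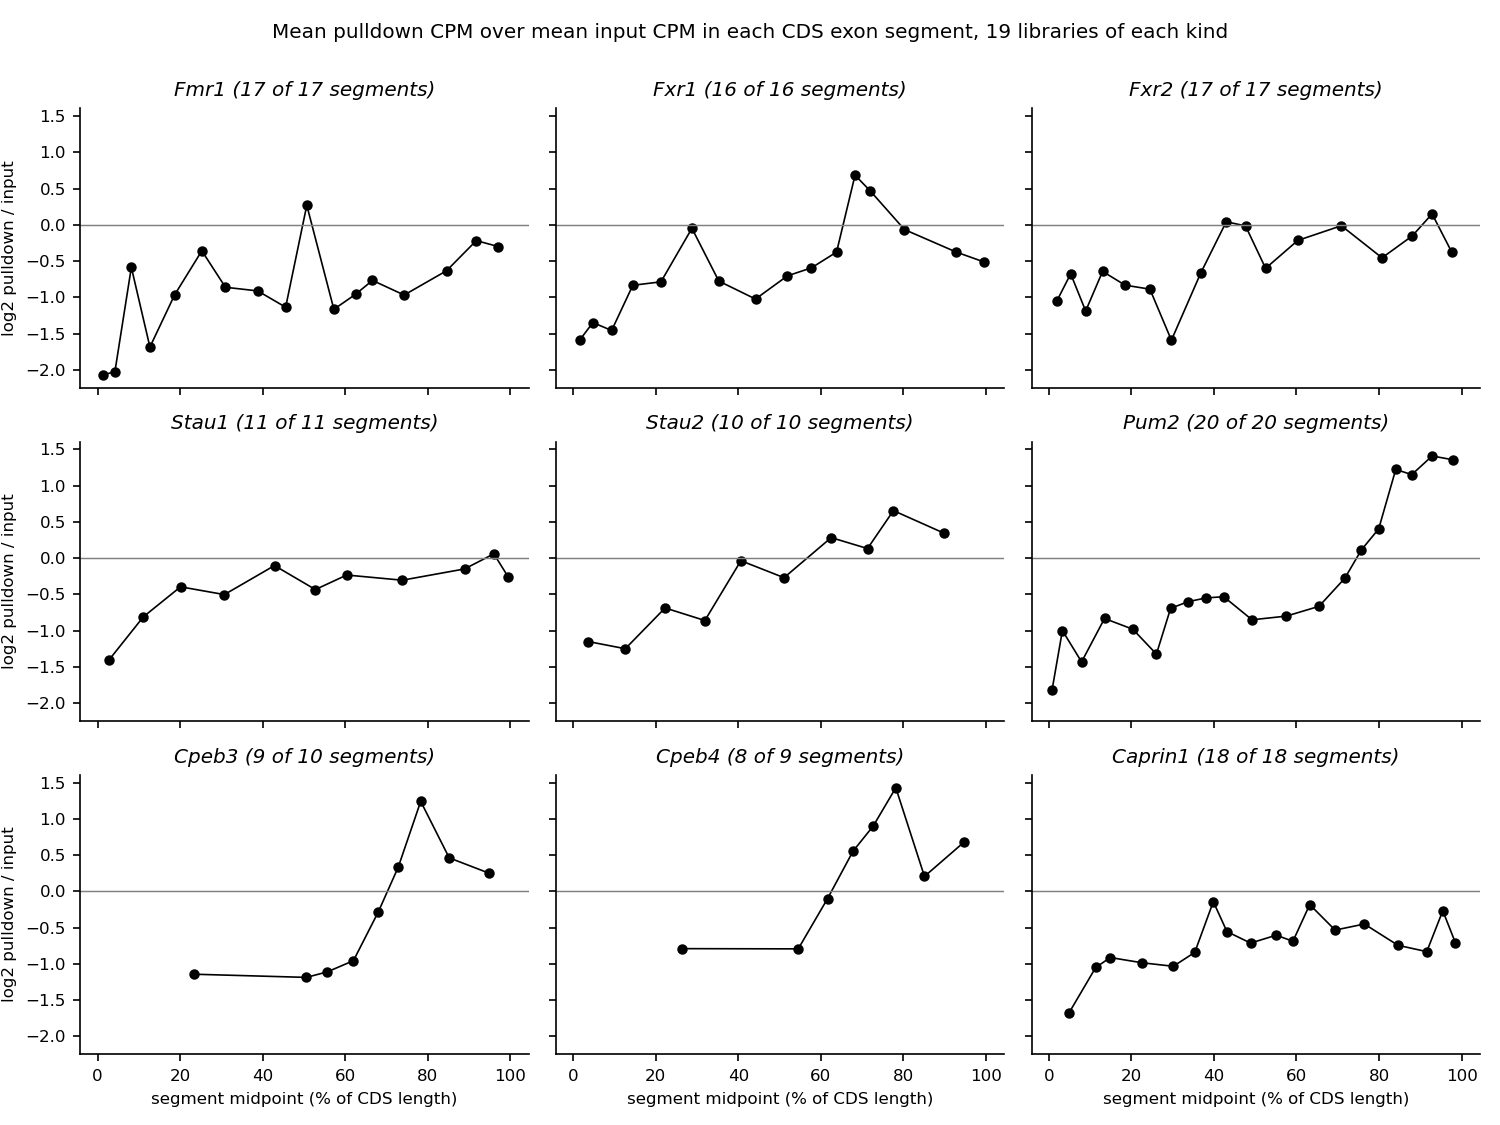
Log2 of mean pulldown CPM over mean input CPM (19 libraries each) in each CDS exon segment with at least 20 input counts, against the midpoint of the segment in percent of CDS length. *Pum2*, *Cpeb3*, *Cpeb4* and *Stau2* cross 0 toward the 3′ end, *Caprin1* lies below 0 along its whole length, and *Fmr1* lies below 0 but for 1 segment near the middle.

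*Caprin1* had no segment above 1. Its first segment, at 0.314, held 16456 of its 58037 input counts, and its highest was 0.907 in the 53-base segment 7. In *Fmr1* the first segment was at 0.238 and the 110-base segment 10 at 1.21, the only 1 above 1, from 161 input and 155 pulldown counts. *Fxr1* reached 1.61 in segment 12 and 1.38 in segment 13, and *Stau2* had 1.22, 1.10, 1.58 and 1.27 in its last 4 segments after 0.450 in the first. *Stau1* lay between 0.377 and 1.04 over its 11 segments.

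In the inputs, the 110-base exon shared by the FMRP family carried few footprints in each of the 3 genes. Density there was 0.305 of the gene's own mean in *Fmr1*, 0.393 in *Fxr1* and 0.265 in *Fxr2*. Among the same 7749 segments these lay at percentiles 5.38, 10.1 and 3.81. Of the listed coding transcripts, 5 of 6 held the exon in *Fmr1*, 5 of 7 in *Fxr1* and 1 of 1 in *Fxr2*. The alternative 63-base exon of *Fmr1* (chrX:68705861-68705923), in 3 of 6 transcripts, was at 0.241. The 24-base exons of *Cpeb3* and *Cpeb4* had 1 and 4 input counts and 0 and 3 pulldown counts. Segments of 24 bases had a median density of 0.0210 of their gene's mean over 74 such segments.

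Counts in the 3′ UTR were low. Over 19 inputs they ranged from 8 counts in *Fmr1* to 348 in *Fxr1*, and over 19 pulldowns from 8 in *Fmr1* to 392 in *Fxr1*. *Cpeb3* had 27 in inputs and 142 in pulldowns and *Pum2* 44 and 142, and no test was made.

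Other genes of the same pathways were taken from lists. Their counts are given for all replicates only, and some member calls in these comparisons were lost when a replicate was left out, as given above. Among 35 further RNA binders of transport granules, 22 were lower in the resting PSD95 pulldown than in the inputs and 0 were higher, where 16.4% of all genes were lower and 14.7% higher (list median -0.70 against -0.04 over all genes tested). They were led by *Elavl2* (-0.98 ± 0.19), *Hnrnpa2b1* (-0.98 ± 0.21) and *Ybx1* (-0.95 ± 0.21). After KCl 8 were lower, where 6.84% of all genes were, and 0 higher (median -0.43 against -0.01 over all genes tested). After DHPG 30 of 34 were lower, where 39.3% of all genes were (median -1.06 against 0.05 over all genes tested), and 1 was higher, the helicase gene *Dhx36* (0.64 ± 0.08). In pulldown over input, 13 of 34 were lower after DHPG than at rest, where 4.21% of all genes were (median -0.50 against -0.05 over all genes tested). In the resting knockdown 28 of 35 were lower in the pulldown, where 23.4% of all genes were, and 1 was higher (median -0.91 against -0.01 over all genes tested).

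Of 6 partners of FMRP tested, 4 were higher in the resting PSD95 pulldown and 2 lower, where 31.2% of all genes passed (list median 0.72 against -0.04 over all genes tested). The higher ones included *Cyfip2* (1.14 ± 0.21) and *Cyfip1* (1.11 ± 0.23), which bridge FMRP, eIF4E and the actin-regulating WAVE complex, and the Argonaute gene *Ago2* (0.78 ± 0.20). The FMRP-interacting *Nufip1* (-1.31 ± 0.30) and *Nufip2* (-0.79 ± 0.22) were the lower ones. Of 10 stress granule partners of Caprin1, 3 were lower and 0 higher at rest, close to the 31.2% of all genes that passed (list median -0.41 against -0.04 over all genes tested). They were the poly(A)-binding protein gene *Pabpc1* (-1.09 ± 0.20), *Ubap2l* (-0.98 ± 0.21) and *Tial1* (-0.91 ± 0.27). In the inputs KCl lowered 3, *Pabpc1* (-1.84 ± 0.16), *Usp10* (-0.74 ± 0.16) and *Ubap2l* (-0.52 ± 0.16), and raised 2, *Atxn2l* (0.63 ± 0.15) and *Tia1* (0.52 ± 0.16), 5 of 10 where 15.4% of all genes passed.

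Of 12 tested genes of repression by 3′ UTR binders, which include deadenylases and cap-binding repressors, 4 were higher and 3 lower in the resting PSD95 pulldown, where 31.2% of all genes passed (list median -0.30 against -0.04 over all genes tested). *Tent2* (1.36 ± 0.43), *Cnot8* (1.09 ± 0.27) and *Cnot1* (0.93 ± 0.30), genes of poly(A) tail enzymes and their scaffold, were higher, and *Eif4e2* (-1.03 ± 0.26) was lower. KCl raised the antiproliferative gene *Btg2* in the inputs (1.97 ± 0.29) and lowered *Eif4enif1* (-1.04 ± 0.17), 2 of 12 where 15.4% of all genes passed. Of the CPEB paralogs, *Cpeb1* was higher in the resting PSD95 pulldown (1.02 ± 0.30) while *Cpeb2* (-0.59 ± 0.21) was lower. *Cpeb2*, like *Cpeb3*, was also lower in the resting knockdown inputs than in the resting PSD95 inputs without siRNA, with a log2 difference of -1.13 ± 0.25. Of all genes 3.91% passed there. Experiment and treatment cannot be told apart in it, and the part of other cell types was not tested.

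Over the means of the 14 groups, the 9 genes fell into no single pattern. The closest pair was *Fmr1* and *Caprin1* (Pearson correlation of log2 CPM 0.920), followed by *Fmr1* and *Fxr1* (0.885), *Fxr2* and *Caprin1* (0.883), *Fxr1* and *Caprin1* (0.866) and *Fmr1* and *Fxr2* (0.792). *Stau1* and *Stau2* had 0.440, *Cpeb3* and *Cpeb4* 0.150, and *Fxr2* and *Cpeb4* had the lowest value, -0.519. These are descriptions over 14 points that share baits and the split into inputs and pulldowns, and carry no test. Among 7709 genes with a mean log2 CPM of at least 4, the 3 most like *Fmr1* were *Rps4x* (0.947), *Gm7324* (0.947) and *Gtf2e2* (0.945), and those most like *Caprin1* were *Map9* (0.987), *Vapa* (0.985) and *Serbp1* (0.984). For *Fxr1* they were *Nasp* (0.967), *Chmp1b* (0.964) and *Tpt1* (0.962), and for *Fxr2* *Polr3d* (0.953), *Dazap1* (0.951) and *Shf* (0.941). *Stau2* was most like *Neurl1b* (0.950), *Thra* (0.947) and *Rgma* (0.935), and *Stau1* *Psd2* (0.887), *Bysl* (0.886) and *Ccdc85a* (0.874). *Pum2* was most like *Utp14b* (0.928), *Brms1l* (0.891) and *Patl1* (0.855), *Cpeb3* *Pnoc* (0.962), *Zic2* (0.946) and *Mrpl10* (0.939) and *Cpeb4* *Tmem41a* (0.908), *Rai1* (0.884) and *Rbm39* (0.871).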

How the data were processed

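Monosome footprints of 38 libraries in 14 groups, 10 of 3 libraries and 4 of 2, were read from 114 tables. The authors trimmed reads, removed unique molecular identifiers, aligned to mm10 with Rsubread and counted the 5′ ends of reads with Plastid. The deposited counts are whole numbers per exon segment of each transcript, in separate tables for CDS, 5′ UTR and 3′ UTR, and reads of rRNA and duplicates had been taken out by the names of the authors' tables. The deposited RPKM values beside them were not used. For DHPG inputs and knockdown samples one label field names the cytosol and another the PSD95-TurboID virus, and groups follow the virus field.

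Segments were summed over the longest coding transcript of each gene (66750 of 67238 coding transcripts, 99.3%, were matched to a gene). Libraries were scaled by TMM. Genes were filtered by filterByExpr and tested by the quasi-likelihood test of edgeR (version 4.0.16, R 4.3.3) with robust dispersion and Benjamini-Hochberg adjustment over all genes, at an FDR of 0.05. Values after ± are standard errors for log2 differences and SD for levels. 5′ UTR counts were tested in the same way on the scale of the CDS library sizes. The 3′ over 5′ ratio within the CDS was tested with limma (3.58.1) on log2 of counts plus 0.5, for genes with a mean of at least 10 counts.

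Alternatives were no filter, another transcript per gene, DESeq2 (1.42.0) and its size factors, the likelihood ratio test that the study's methods name, the CDS length trend, replicate blocks and each replicate left out. Per the methods, resting and activated samples of a replicate were handled at the same time. Deviations from group means correlated by a median of 0.510 (lowest 0.347) over 12 pairs of input and pulldown of a culture and by a median of 0.148 (lowest -0.288) over 84 pairs with the same number. In the DHPG (-0.215 to 0.0558) and knockdown (-0.0233 to 0.0540) libraries numbers did not pair. Replicates of a group differed beyond sampling noise (chi-square per degree of freedom 1.48 to 47.5 over 34 pairs), so none was a copy of another. This cannot tell separate cultures from repeat preparations of 1 culture, which can also differ beyond sampling noise. DHPG input pairs had 1.48, 1.67 and 1.89, DHPG pulldown pairs 2.83, 8.17 and 8.88, and knockdown pairs 2.81 to 4.65. No pair of KCl experiment libraries was below 8.61. Whether small p-values after DHPG or knockdown reflect spread between preparations alone was not tested.

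The members and the gene lists were chosen with earlier results of these data known. The comparisons of pulldown over input with against without DHPG or knockdown, and the 3′ over 5′ ratios, were added after the data were seen. The genes named are the 9 members, *Eif4g2*, *Dlg4* and *Arc*, up to 3 genes per list, comparison and direction with the smallest p past the FDR, and the 3 genes with the highest correlation to a member. Some genes that this rule names are not reported here.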

Additional observations from a re-analysis of the deposited data

Results flagged for a closer look

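The ratio of pulldown to its own input was lower after DHPG than in resting PSD95-TurboID neurons for *Caprin1* (log2 difference -0.69), *Fmr1* (-0.78) and *Fxr1* (-0.78), by an interaction term of the edgeR fit. The same kind of term gave a higher pulldown over input ratio for *Cpeb4* with the eIF4G2 siRNA than without it at rest (log2 difference 1.43). With the siRNA, the pulldown over input difference of *Cpeb4* was not even along the CDS, as given above. Both comparisons set libraries of separate experiments against each other, so experiment and treatment cannot be told apart, and both were added after the data were seen. *Fmr1* and *Fxr1* did not pass with any single replicate left out, and *Caprin1* did not without replicate 1 or replicate 2, as given above. The *Cpeb4* call rests on 2 libraries in each knockdown group.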

How the results depend on the processing

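Of the member values recomputed under the alternatives, 2785 stayed on their side of the FDR of 0.05, 153 lost the call, 69 gained it and 5 called values changed sign. Of the 2785, 2671 kept their sign and 114 changed it, none of them called. The cause of these changes was not tested. The counts that follow are members past the threshold. Shares of all genes are given above for some replicate blocks only. For the other settings, a lost or gained call cannot be read as particular to these genes. With no filter on low counts the depolarized PSD95 pulldown had 1 in place of 3, the depolarized Pan pulldown 0 in place of 1 and the 5′ UTR of the depolarized PSD95 pulldown 1 in place of 2. Against the PSD95 inputs alone, the depolarized PSD95 pulldown had 1. With the CDS length trend removed, the resting Pan pulldown had 3 in place of 1, KCl in inputs 1 in place of 3, KCl in knockdown pulldowns 1 in place of 2 and the knockdown inputs after KCl 2 in place of 1. DESeq2 gave 1 for KCl in knockdown pulldowns, 2 for the knockdown inputs after KCl, 1 in place of 0 for pulldown over input with against without knockdown after KCl and 6 for the 5′ UTR of the depolarized PSD95 pulldown. For the same contrast at rest, size factors of DESeq2, the likelihood ratio test and DESeq2 each gave 2 in place of 1, and the size factors gave 1 for KCl in knockdown pulldowns. The likelihood ratio test gave 5 for the 5′ UTR of the depolarized PSD95 pulldown and 2 in place of 0 for the 5′ UTR with KCl in knockdown inputs. The beginning and the end of the CDS without its middle gave 6 in place of 3 in the Pan pulldown.

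With 5′ UTR library sizes, 5′ UTR calls fell to 0 from 5 in the resting PSD95 pulldown, from 2 after KCl and from 7 after DHPG, and the called values that changed sign were *Stau1* at rest (0.28) and, after DHPG, *Fxr2* (0.16), *Stau1* (0.10), *Pum2* (0.15) and *Cpeb3* (0.055). Of values not called, 9 changed sign, among them *Fxr2* (0.55) and *Cpeb3* (0.20) at rest, *Stau1* after KCl (0.26) and, with KCl in PSD95 pulldowns, *Fmr1* (-0.23) and *Pum2* (-0.32).

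With the replicate block, KCl in inputs had 5 members in place of 3, the resting Pan pulldown 2 in place of 1 and the 5′ UTR of the depolarized PSD95 pulldown 6 in place of 2. With the block by culture, the Pan pulldown had 6 at rest and 3 after KCl. In other comparisons the block moved no count of members by more than 1.5 times.

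Leaving out 1 replicate gave 0 to 5 members for the resting PSD95 pulldown, 0 to 2 after KCl, 0 to 1 for the resting Pan pulldown and 0 to 0 after KCl. KCl in inputs ranged from 0 to 1, in PSD95 pulldowns from 0 to 0 and in Pan pulldowns from 0 to 1. DHPG inputs against rest ranged from 3 to 4, DHPG pulldowns from 5 to 8 and the pulldown over input after DHPG against rest from 0 to 1. KCl in knockdown inputs ranged from 0 to 4 and in knockdown pulldowns from 0 to 1. Knockdown against untreated inputs ranged from 0 to 1 at rest and after KCl, pulldowns from 0 to 3 and 0 to 2, and pulldown over input at rest from 0 to 1. The 5′ UTR ranged from 0 to 5 in the PSD95 pulldown at rest and after KCl and from 0 to 2 with KCl in knockdown inputs, and the 3′ over 5′ ratio from 1 to 6 in PSD95 and 0 to 4 in Pan pulldowns. A comparison with a single library left in a group borrows its spread from the other groups.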
